A study of Homo sapiens with 3 samples.

Results

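The transcripts examined are those of the zinc finger genes of chromosome 19 that carried clusters in MATR3 PAR-CLIP of HAP1, an adherent human leukaemia-derived line that carries nearly a single set of chromosomes. MATR3 is a nuclear RNA-binding protein, and PAR-CLIP maps contact sites of a protein on RNA: 4-thiouridine crosslinked to the protein is read as C and so appears as a T-to-C change. Members were chosen by name: clusters on chromosome 19 that the authors gave to an annotated gene named ZNF followed by a digit, without names that hold a hyphen. This rule found 128 genes of the 9754 genes with a cluster in any library. They held 435 clusters of the 87230 in wild-type (WT) replicate 1 (WT rep1), 135 of the 27155 in WT replicate 2 (WT rep2) and 0 of the 842 in the MATR3 knockout (KO) library.

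The 3 libraries were 2 from wild-type HAP1 cells and 1 from a MATR3 knockout HAP1 line, and the labels give no other difference in treatment. All were purified on anti-FLAG beads per the labels, which record no tag on MATR3, and whether the knockout line is 1 clone is not given in the sources used here. Each library's clusters of overlapping reads were called separately by the authors and keep at least 5 reads and at least 2 converted positions. The tables hold reads within clusters only, 2668797 in WT rep1, 1558995 in WT rep2 and 224142 in KO, so the sequencing depth is unknown. MATR3 itself had 53 clusters in WT rep1, 26 in WT rep2 and 0 in KO, although clusters on an RNA do not measure the protein. Nothing in the labels says that the WT libraries came from separate cultures, so their spread may be technical.

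The C2H2 zinc finger genes are the largest family of DNA-binding regulators in the human genome, and chromosome 19 carries many of them in tandem arrays that arose by gene duplication. A large number also encode a KRAB domain, through which the protein recruits TRIM28 and the SETDB1 histone methyltransferase to silence transposable elements and other targets. In a typical gene of this family short upstream exons are separated by introns from 1 long terminal exon that encodes the fingers. MATR3 is known mainly as a binder of intronic pyrimidine-rich RNA with roles in splicing.

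Sequences are given here for some of the 19 sites that were found in both WT libraries. The lines below give the stretch that both libraries covered (up to 30 nt), in the 5′ to 3′ direction of the transcript, with the longest unbroken run of C and T in capitals. The first lines are the strongest pair of each of 6 genes, and the others add the remaining 3′ UTR sites of ZNF121 and 3 intronic sites covered over the same bases in both libraries. Positions are on hg38, the build named in the submitters' processing notes.
ZNF121 3′ UTR, chr19:9561506-9561535, minus strand: TCCTTattcatttatttacccatttacttg
ZNF146 intron, chr19:36235269-36235296, plus strand: actttctaattttcaTCTTTTTCTTCTa
ZNF317 intron, chr19:9144775-9144804, plus strand: cttacactttttggtgtaaTTCTTCCactg
ZNF536 processed transcript, chr19:30300323-30300352, plus strand: tcccctacatttatttcctggggTCTCTTT
ZNF761 intron, chr19:53438563-53438592, plus strand: aaaagaggggCTCCTTTTCCCCTCCTTTTg
ZNF700 intron, chr19:11931443-11931472, plus strand: CCTTCTaatactatattgggagtaggttat
ZNF121 3′ UTR, chr19:9563313-9563342, minus strand: caTTTCTTCTgcagctaactcacctctcag
ZNF121 3′ UTR, chr19:9563394-9563422, minus strand: caattgctacttcactttgtaCTTTTatg
ZNF121 3′ UTR, chr19:9564496-9564517, minus strand: CTTTTTTCCatcacatccacag
ZNF606 intron, chr19:57994608-57994637, minus strand: TTTCTCTTCCCCCatccctagatttctagg
ZNF550 intron, chr19:57558726-57558755, minus strand: ttaatttctcatccaCCTCTCCCTCCTTTg
ZNF700 intron, chr19:11946243-11946271, plus strand: tttctcccgcagcttcacaTTCTCTCTTg
The capital runs of the sites shown ranged from 5 bases in the ZNF121 3′ UTR to 19 bases in the ZNF761 intron. Of the sites not shown, that in a ZNF444 intron had a run of 4. Among the intronic sites shown, the runs had 6 and 9 bases in ZNF700, 7 in ZNF317, 12 in ZNF146, 13 in ZNF606, 14 in ZNF550 and 19 in ZNF761. The 4 sites in the ZNF121 3′ UTR had runs of 5, 8, 5 and 9, within the range of those introns or just below it. The sites were chosen by reads and shared ends, so these lengths make no comparison of introns with 3′ UTRs.

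Most chromosome 19 zinc finger genes with a cluster had few of them. In WT rep1, 119 members had a cluster, of which 39 had 1, 29 had 2, 28 had 3 to 5, 14 had 6 to 9 and 9 had 10 or more. In WT rep2, 61 members had a cluster, of which 33 had 1, 13 had 2, 11 had 3 to 5, 2 had 6 to 9 and 2 had 10 or more. The median was 2 clusters per gene in WT rep1 (quartiles 1 and 4) and 1 in WT rep2 (quartiles 1 and 2), and the other chromosome 19 genes had the same medians and quartiles. Across all genes with a cluster the medians were 4 and 2.

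All 128 members matched a RefSeq gene (GRCh38.p14), 2 of them under another name, and their clusters lay on 1 strand each. RefSeq lists 246 protein-coding genes under the same name rule on chromosome 19. A cluster was found in 119 of these in WT rep1, or 48.4% (95% Wilson interval 42.2 to 54.6%), and in 60 in WT rep2, or 24.4% (19.4 to 30.1%). For the 1205 other protein-coding genes of the chromosome the shares were 24.9% (22.5 to 27.4%) and 11.5% (9.85 to 13.5%). The zinc finger genes are longer, with a median RefSeq length of 23152 nt against 12763 nt. Per Mb of gene length they held 60.6 clusters against 50.4 in WT rep1, and 18.7 against 10.8 in WT rep2. In both WT libraries the density was thus higher in the zinc finger genes. How much RNA each gene makes was not measured, and its part in these densities was not tested.

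As a share of the chromosome, the zinc finger genes held 24.1% of gene clusters in WT rep1 (435 of 1802, 22.2 to 26.2%) and 31.0% in WT rep2 (135 of 435, 26.9 to 35.5%). The mean was 27.6 ± 4.88% (SD, n = 2). As a share of all clusters of a library they were at 0.499% (0.454 to 0.548%) in WT rep1 and 0.497% (0.420 to 0.588%) in WT rep2, which did not differ beyond counting error. The share held by all chromosome 19 genes together was 2.07% (1.97 to 2.16%) in WT rep1 and 1.60% (1.46 to 1.76%) in WT rep2.

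The KO library had no cluster in any member. Among the 9706 genes bound in at least 1 of the WT libraries 5.88% had a KO cluster, against 0 of the 128 members. For the other chromosome 19 genes bound in at least 1 WT library it was 10 of 366. The KO table held 15 clusters in 13 other genes of the chromosome. At the WT shares, a library of 842 clusters would hold 4.20 or 4.19 member clusters. A count of 0 of 842 allows a share of up to 0.356% (3 counts of the total, a 1-sided limit). This is below the WT shares of 0.499% and 0.497% and their intervals given above, which are 2-sided. By the Wilson method used for those intervals the KO share reaches 0.454%. So computed, the KO interval meets that of WT rep1 and overlaps that of WT rep2, and the intervals are not separate. Against the strongest WT clusters the difference was not detectable at this number: ranked by reads, the top 842 held 2 member clusters in WT rep1 (0.238%, 0.0652 to 0.862%) and 3 in WT rep2 (0.356%, 0.121 to 1.04%). These limits cover counting error only. With 1 KO library no test between genotypes can be made, since a permutation of 3 libraries gives no p below 0.333. Zinc finger genes on other chromosomes had 6 KO clusters.

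A few genes led the list. ZNF536, a zinc finger gene studied mainly in neurons and the longest of the leading members, had 27 clusters with 696 reads in WT rep1 and 11 with 737 reads in WT rep2. ZNF121 had 21 clusters with 1064 reads and 14 with 1076 reads. ZNF146, which encodes a small protein made almost wholly of fingers, had 25 clusters with 1071 reads and 6 with 315 reads. These 3 had more clusters than any other member in WT rep1. ZNF529 had 11 and 6 clusters, ZNF91, a KRAB gene known to repress SVA retrotransposons, had 12 and 5, and ZNF317 had 7 and 5. ZNF254 had 11 and 3, ZNF761 had 8 and 4, ZNF675 had 8 and 4, and ZNF480 had 8 and 3. ZNF567 and ZNF331, an imprinted KRAB gene, had 7 and 3 each. The 5 members with the most clusters held 22.3% of the member clusters in WT rep1 and 31.1% in WT rep2.

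**Figure D1:**
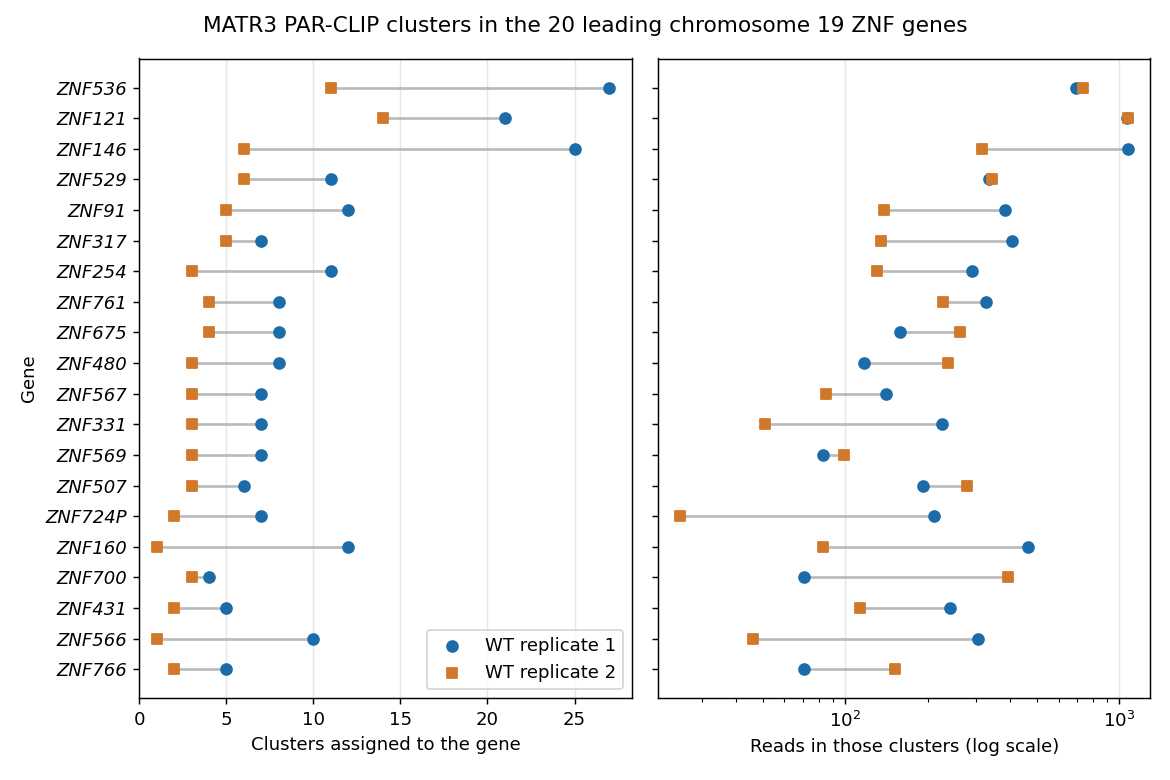
Clusters (left, linear axis) and reads in those clusters (right, log axis) for the 20 members with the highest geometric mean number of clusters over the WT libraries, 1 point per library. ZNF536, ZNF146 and ZNF121 have 27, 25 and 21 clusters in WT rep1, and ZNF121 has nearly equal reads in both libraries while ZNF146 has 1071 against 315.

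Gene length changes this order. Per 10 kb of RefSeq length, ZNF146 had 10.4 clusters in WT rep1 and 2.50 in WT rep2, and ZNF121 had 8.69 and 5.79. ZNF536 was at 0.553 and 0.225, below the medians of 0.905 and 0.537 over the members with a cluster in that library. ZNF317 had 3.04 and 2.17, and ZNF761 had 3.04 and 1.52. ZNF428 had 5.64 in WT rep1 and no cluster in WT rep2.

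The WT libraries differed in the weight they gave to single members. As log2 differences in the share of a library's cluster reads (WT rep2 minus WT rep1), ZNF146 was at -0.99, ZNF317 at -0.81, ZNF529 at 0.81 and ZNF536 at 0.86. These are the 4 largest sizes among the 6 members with at least 5 clusters in each library, and they run both ways. In WT rep1, ZNF14, ZNF260, ZNF428, ZNF492 and ZNF573 had 7 clusters each, and none in WT rep2. Conversely, 9 members were seen in WT rep2 only, all with 1 cluster.

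By transcript class, the intron share of zinc finger gene clusters did not differ from that of other chromosome 19 genes beyond counting error. Introns held 389 of 435 clusters in WT rep1, or 89.4% (86.2 to 92.0%), against 89.1% (87.3 to 90.6%) for the other genes. In WT rep2 they held 109 of 135, or 80.7% (73.3 to 86.5%), against 82.0% (77.3 to 85.9%). The difference was 0.325 percentage points in WT rep1 (95% Newcombe interval -3.27 to 3.43) and -1.26 in WT rep2 (-9.70 to 6.21). These intervals cover counting error only, since clusters of 1 gene are not independent and reads carry no molecular identifiers. The WT replicates differed from each other by more than the 2 groups of genes did, with a mean of 85.1 ± 6.14% for the zinc finger genes (SD, n = 2).

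ZNF121 had more 3′ UTR clusters than any other member in both WT libraries. The 3′ UTR share of the zinc finger genes was 5.98% in WT rep1 (26 of 435, 4.11 to 8.61%) and 12.6% in WT rep2 (17 of 135, 8.01 to 19.2%), with 5.49% and 10.3% for the other chromosome 19 genes. The differences were 0.491 points (-1.80 to 3.34) and 2.26 points (-3.80 to 9.54). Over all gene clusters the 3′ UTR share was lower, at 3.21% in WT rep1 and 4.53% in WT rep2. ZNF121 had 8 of the 26 in WT rep1, where 18 came from 16 other members, and 10 of the 17 in WT rep2. Without it the shares were 4.35% (18 of 414) and 5.79% (7 of 121), below those of the other genes by 1.14 points (interval of the difference -3.21 to 1.51) and 4.55 points (-9.49 to 1.85). The order of the groups therefore turned without ZNF121, and neither order went beyond counting error. The order also turned when reads were counted in place of clusters, with a WT mean of 11.7% against 11.9%, and when shares were averaged over genes with at least 3 clusters, at 6.05% against 8.37%. When clusters had to hold 3 or more converted positions, the WT mean rose from 9.28% to 16.1%, against 7.79% for the other genes. ZNF121 was kept in this alternative, and neither an interval nor the share without ZNF121 was computed for it.

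Compared with zinc finger genes elsewhere in the genome, the same gene mattered. Those genes had a 3′ UTR share of 4.15% in WT rep1 and 4.44% in WT rep2. The chromosome 19 genes were above them by 1.83 points (-0.390 to 4.63) and 8.15 points (2.91 to 15.01), and without ZNF121 by 0.1997 points (-1.78 to 2.80) and 1.35 points (-2.56 to 7.26). Apart from ZNF121, 3′ UTR clusters occurred in 16 members in WT rep1 and 7 in WT rep2. ZNF426 and ZNF649 had 1 in each library, ZNF260 and ZNF738 had 2 in WT rep1 only, and ZNF146 had 1 in WT rep1 only.

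**Figure D2:**
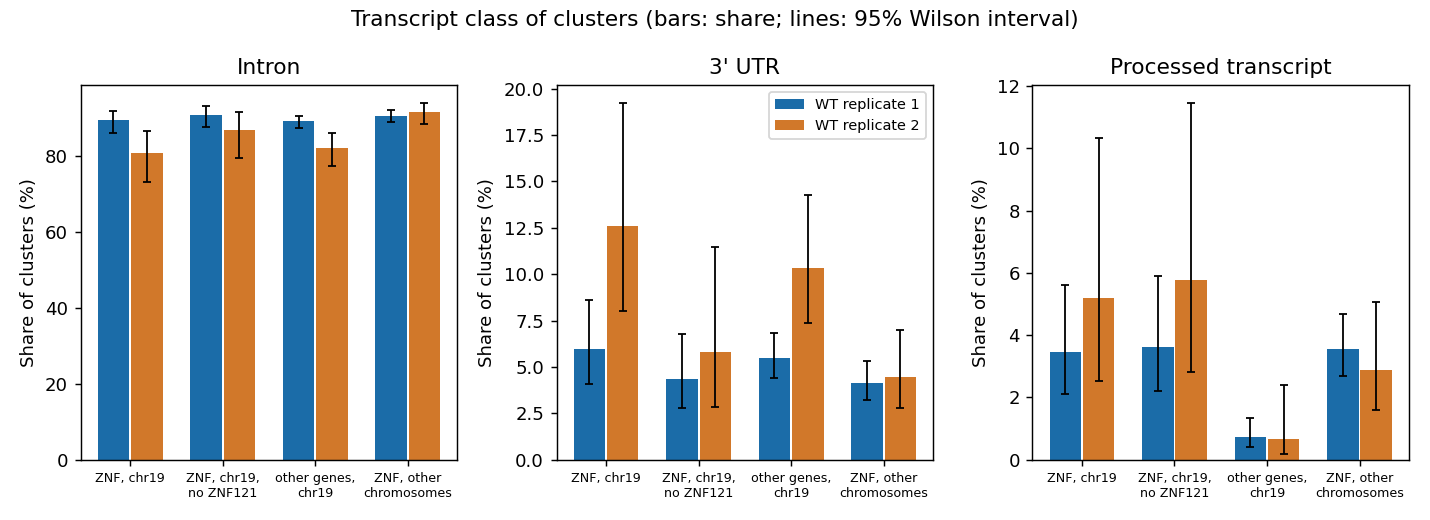
Share of clusters in introns, 3′ UTRs and processed transcripts for chromosome 19 zinc finger genes with and without ZNF121, the other chromosome 19 genes and zinc finger genes on other chromosomes; bars are shares per WT library and lines are 95% Wilson intervals. The 3′ UTR bar of the zinc finger genes in WT rep2 drops from 12.6% to 5.79% when ZNF121 is left out.

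Within ZNF121, whose transcript is read from the minus strand, the class of the 3′ UTR clusters confines them to the annotated 3′ UTR. The 8 clusters of WT rep1 lay between positions 9560930 and 9564783 with 35 to 241 reads each (median 64). The 10 of WT rep2 lay between 9561046 and 9564814 with 11 to 163 reads (median 85.5). These outer bounds are limited by the annotation, so their likeness is no measure of agreement between the libraries. Intronic clusters were spread over positions 9568836 to 9584303 in WT rep1 (13 clusters, 11 to 65 reads) and 9568701 to 9581151 in WT rep2 (4 clusters, 5 to 145 reads). Of the reads in ZNF121 clusters, 643 of 1064 in WT rep1 and 778 of 1076 in WT rep2 were in the 3′ UTR. In each library 4 of the 3′ UTR clusters and 2 of the intronic clusters overlapped a cluster of the other library.

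**Figure D3:**
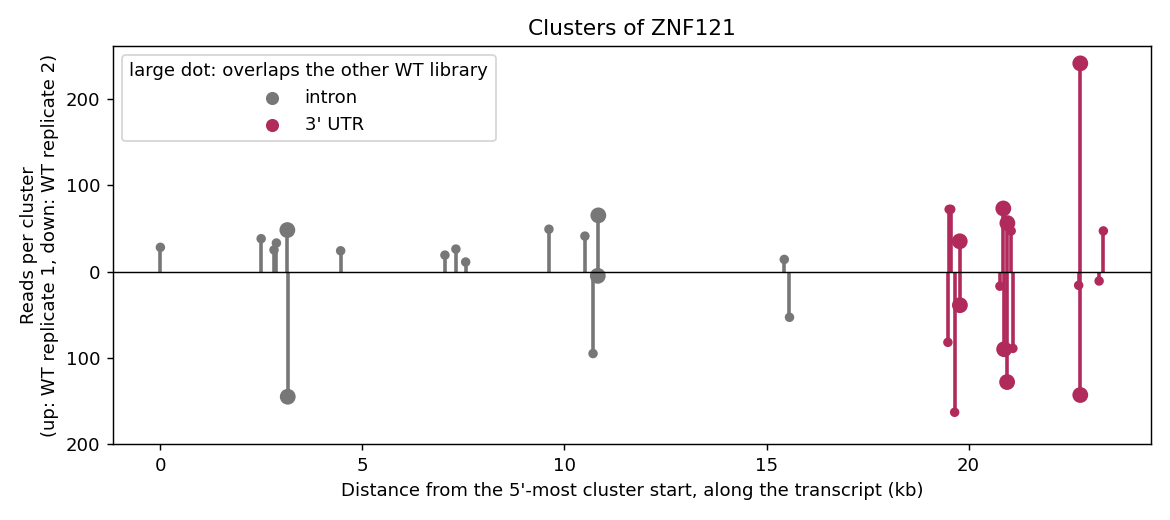
Clusters of ZNF121 by distance along the transcript from the 5′-most cluster start (kb) and by reads, with WT rep1 upward and WT rep2 downward; colour marks the class, and large dots mark clusters that overlap the other WT library. The 3′ UTR clusters of both libraries gather at the far end, where the highest cluster has 241 reads in WT rep1.

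ZNF146 showed the other arrangement. Of its 25 clusters in WT rep1, 23 were intronic, between positions 36215722 and 36235300, with 9 to 296 reads. In WT rep2, 5 of 6 were intronic with 6 to 205 reads. Its intronic site shown above had 296 reads in WT rep1, the most of any member cluster in that library, and 33 in WT rep2. The strongest cluster of WT rep2, with 205 reads, was also in a ZNF146 intron but overlapped no cluster of WT rep1.

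Processed transcripts are transcript models without an open reading frame. The zinc finger genes held a larger share of clusters in this class than other chromosome 19 genes, almost wholly through ZNF536 and ZNF529. Such clusters made up 3.45% (15 of 435) against 0.732% in WT rep1, a difference of 2.72 points (1.24 to 4.90). In WT rep2 they made up 5.19% (7 of 135) against 0.667%, a difference of 4.52 points (1.35 to 9.67). They came from few genes: ZNF536 had 10 and 4, ZNF529 had 4 and 3, and ZNF701 had 1 in WT rep1. Apart from ZNF536 and ZNF529, only ZNF701 had such a cluster, so the larger share does not describe the family as a whole. No share without these genes was computed, and the intervals treat clusters of the same gene as independent. Zinc finger genes on other chromosomes had 3.56% and 2.87% in this class. Coding sequence held 2 member clusters in WT rep1 and 0 in WT rep2.

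The base composition of the member clusters differed from that of other chromosome 19 genes and was near that of genes elsewhere. T made up 40.4% of member cluster bases in WT rep1 and 43.0% in WT rep2, against 34.6% and 37.0% for other chromosome 19 genes. The WT means were 41.7 ± 1.88% and 35.8 ± 1.67% (SD, n = 2). G was 10.8 ± 0.172% against 15.2 ± 0.491%, C was 25.9 ± 1.36% against 31.7 ± 0.540%, and A was 21.6 ± 0.691% against 17.3 ± 0.639%. For each base the values of the 2 groups did not overlap between libraries. Zinc finger genes on other chromosomes, at 41.1 ± 0.469% T and 9.85 ± 0.285% G, lay near the chromosome 19 members, and so did all other genes on other chromosomes, at 41.1 ± 1.21% T and 9.94 ± 0.118% G. It was thus the other chromosome 19 genes that stood apart from the remaining groups, and no test was made of this. The tables give no bases outside clusters, so the composition of the transcripts themselves was not tested.

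**Figure D4:**
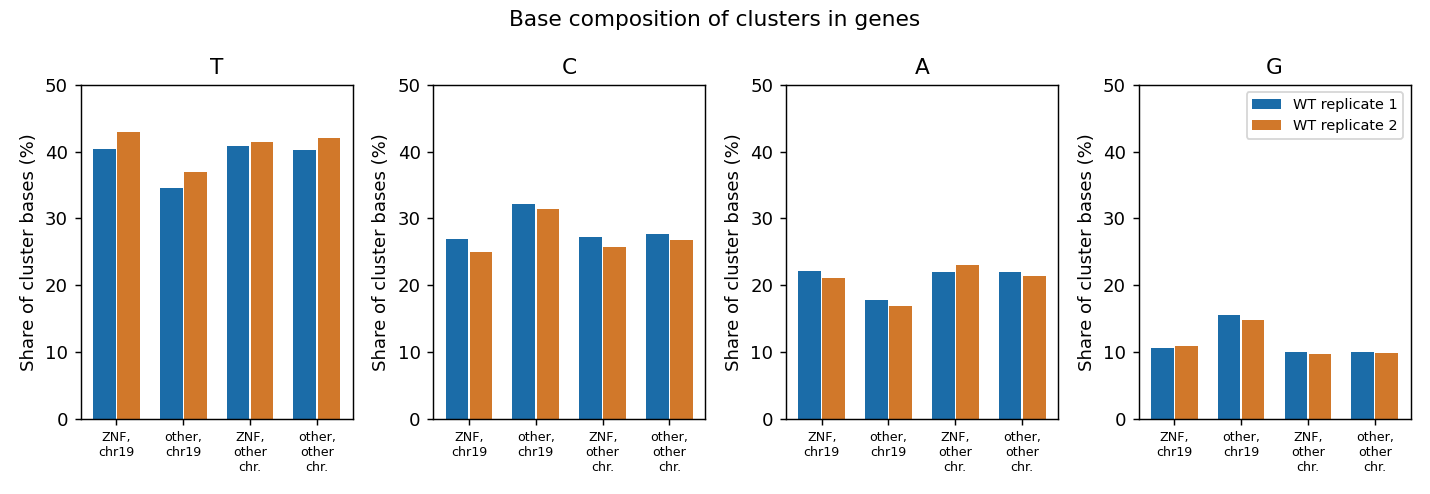
Share of each base among cluster bases in chromosome 19 zinc finger genes, other chromosome 19 genes, zinc finger genes on other chromosomes and all other genes, 1 bar per WT library. The other chromosome 19 genes have the lowest T and the highest G shares in both libraries, while the remaining groups lie close together.

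Longer pyrimidine runs did not follow this order. The longest run of C and T in a cluster had a median of 8 bases in the members and in other chromosome 19 genes in both WT libraries. A run of 8 or more was present in 51.5% of member clusters in WT rep1 (46.8 to 56.2%) and 50.4% in WT rep2 (42.0 to 58.7%), against 756 of 1367 and 168 of 300 clusters of the other genes of the chromosome. The pentamer TTCTT made up 13.2 and 13.4 per 1000 pentamers in member clusters and 9.42 and 11.5 in the other chromosome 19 genes. Over all gene clusters it was at 13.1 in WT rep1 and 15.1 in WT rep2, so the members were not above the level of the series in both libraries.

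T-to-C changes were frequent in the member clusters, and every deposited cluster holds at least 2 converted positions. Per member cluster, the median percentage of converted reads (those carrying T-to-C) was 94.9% in WT rep1 and 97.2% in WT rep2, against 93.3% and 97.9% for the other chromosome 19 genes. Of the T positions read, 7.89% (7.76 to 8.02%) and 7.95% (7.78 to 8.12%) were converted in the members, a mean of 7.92 ± 0.0408% (SD, n = 2), against 8.57 ± 0.00479% in the other genes. The part of T content in this difference was not tested. Across all WT gene clusters 7.94% of T positions were converted in WT rep1 and 7.53% in WT rep2, so the members were not low for the series. The intervals treat each T of each read as independent although reads carry no molecular identifiers, so they are too narrow. Over all gene clusters of the KO library the median of converted reads was 97.0%, and 9.74% of T positions were converted. Neither measure was thus particular to the WT libraries. Median reads per member cluster were 20 in WT rep1 and 37 in WT rep2, against 19 and 45.5 for the other chromosome 19 genes. Median unique reads per cluster, as counted by the authors, were only 3 and 2, against 3 and 3.

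Agreement between the WT libraries was lower for the zinc finger genes than for other chromosome 19 genes in WT rep2. Of its 135 member clusters, 19 shared 1 nt or more with a same-strand cluster of WT rep1, or 14.1% (9.20 to 20.9%). Over all gene clusters of WT rep2 the share was 20.2%, and for the other chromosome 19 genes it was 25.7% (77 of 300, 21.1 to 30.9%). The difference to the latter was -11.6 points (-18.7 to -3.32). The interval of the other chromosome 19 genes lay above the share over all gene clusters, while that of the members held it. Without ZNF121 the members' interval was below that share, at 10.7% (6.39 to 17.5%). Moving positions by 500, 1000 and 2000 nt either way gave 2.59% for the members and 3.39% for the other genes, so both groups were above the level of position alone. The gap was larger among intronic clusters, at 12.8% against 28.0%. Giving the other genes the members' distribution of reads per cluster left them at 24.6%. Without GATAD2A, the other gene with the most overlapping clusters, the difference was -10.5 points (-17.7 to -2.20). The level itself depended on the clusters compared. With at least 3 converted positions per cluster the shares were 23.3% against 29.4%, and with WT rep1 limited to as many clusters as WT rep2 they were 8.15% against 15%.

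In the opposite direction the difference was not resolved. Of the 435 member clusters in WT rep1, 19 overlapped WT rep2, or 4.37% (2.81 to 6.72%), against 5.49% (4.40 to 6.82%) for other chromosome 19 genes and 6.25% for all gene clusters. The difference was -1.12 points (-3.17 to 1.47). It turned when clusters had to hold 3 or more converted positions, at 4.14% against 3.28%, and with WT rep1 limited as above the shares were 7.97% against 10.9%. Agreement also rested on ZNF121, which held 6 of the 19 overlaps. Without it 10.7% of WT rep2 clusters and 3.14% of WT rep1 clusters overlapped. The KRAB zinc finger arrays hold near-copies, and reads from such copies can be hard to place. No cluster sequence occurred more than once within a library, and a 15-base word was shared between clusters of different members in 4 gene pairs in WT rep1 and 1 in WT rep2. The part of read placement in the agreement was not tested.

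**Figure D5:**
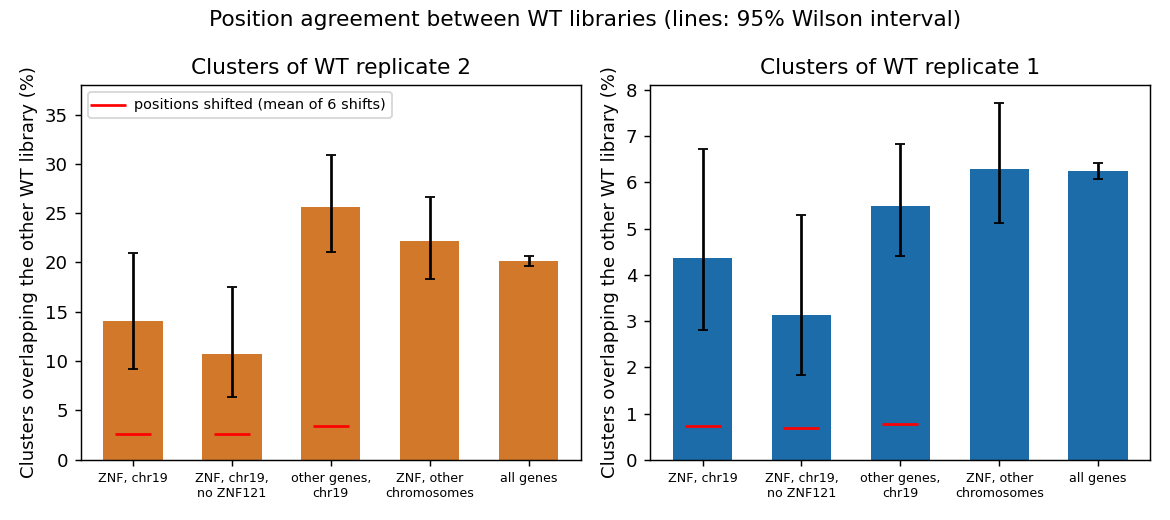
Share of clusters that overlap a cluster of the other WT library, for WT rep2 (left) and WT rep1 (right), with 95% Wilson intervals; red marks give the mean share after moving positions, where computed. On the left the zinc finger genes of chromosome 19 reach 14.1% and the other genes of the chromosome 25.7%.

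The 19 overlapping pairs lay in 12 genes, with 14 in introns, 4 in the 3′ UTR of ZNF121 and 1 in a processed transcript of ZNF536. Both clusters of a pair always had the same gene and class. In 5 pairs both libraries had the same first and last base, as at ZNF121 position 9561506 to 9561538, with 241 reads in WT rep1 and 143 in WT rep2. The ZNF761 intronic pair had 68 and 93 reads over one interval. Reads in other pairs were far apart: the leading ZNF700 pair had 20 and 183, and the ZNF607 pair had 159 and 10. Unique reads, as counted by the authors, were far fewer. That ZNF121 pair had 15 in WT rep1 and 4 in WT rep2, and the ZNF761 pair had 13 and 5. The leading ZNF700 pair had 3 and 5, and the ZNF607 pair had 12 and 2.

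Agreement of the libraries was also counted by gene, a larger unit than a cluster, so these shares are not comparable with those by position. Of the 61 members with a cluster in WT rep2, 52 also had one in WT rep1, or 85.2% (74.3 to 92.0%). Over all genes this share was 91.4%, and for the other chromosome 19 genes it was 80.4% (73.4 to 85.9%). Of the 128 members bound in at least 1 of them, 40.6% had one in both, against 56.9% over all genes and 33.6% (28.96 to 38.6%) for the other chromosome 19 genes. The intervals of members and other chromosome 19 genes overlapped in both measures. The count of 52 fell to 17 with at least 3 converted positions per cluster and to 33 with WT rep1 limited to as many clusters as WT rep2.

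Along the chromosome, members were grouped into arrays where the starts of neighbouring RefSeq zinc finger genes lie within 1 Mb, and each array is named here by its first and last member with a cluster. The array from ZNF146 to ZNF573 (clusters between positions 36215722 and 37778940) held 27 genes, of which 19 had a cluster, with 100 clusters in WT rep1 and 28 in WT rep2. The array from ZNF101 to ZNF254 (19672747 to 24100289) had a cluster in 22 of 44 genes, with 84 and 22 clusters. The array from ZNF577 to ZNF331 (51857295 to 53551745) had 23 of 43, with 68 and 20. The last array, from ZNF865 to ZNF446 (55606042 to 58476927), had 26 of 60 with 48 and 13, and that from ZNF428 to ZNF180 (43612860 to 44489966) had 15 of 25 with 39 and 10. The array from ZNF557 to ZNF562 (7079014 to 9674412) had 7 of 16 with 37 and 22 clusters, of which ZNF121 gave 21 and 14. The array from ZNF627 to ZNF564 (11602508 to 12536862) was sparse, with 9 of 28 genes and 17 and 6 clusters, or 25.4 and 8.96 clusters per Mb of gene against 88.7 and 24.8 in the array of ZNF146. ZNF536 and ZNF507 have no such neighbour and had 27 and 11, and 6 and 3 clusters.

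Genes that act with KRAB zinc finger proteins were taken as a list of 14: TRIM28, SETDB1, ATF7IP, CBX1, CBX3, CBX5, MORC2, FAM208A (TASOR), MPHOSPH8, PPHLN1, CHD3, DNMT1, UHRF1 and SMARCAD1. Of these, 13 had a cluster in WT rep1, 10 in WT rep2 and 9 in both. All 14 had one in at least 1 WT library, so 9 of 14 in both stands beside 56.9% over all genes. The medians were 4 and 1 clusters per gene, beside 4 and 2 over all genes with a cluster. TRIM28, the corepressor itself, had 1 intronic cluster of 19 reads in WT rep1 and none in WT rep2. SETDB1 had 5 and 1. ATF7IP, a partner of SETDB1, had 49 clusters with 1638 reads and 16 with 1192 reads, and PPHLN1, a subunit of the HUSH silencing complex, had 39 and 8, all intronic. FAM208A and UHRF1 had 1 KO cluster each, in introns, with 547 and 460 reads, so 2 of 14 stands beside 5.88% over all genes.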

How the data were processed

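The members and gene lists were chosen with earlier results of these data known. Reads were trimmed with cutadapt 1.8.3 and aligned with Bowtie 1.1.2, per the submitters' processing notes, which also list hg38 and GRCh38.p5 without their roles. The cluster caller and its thresholds are not given in the sources used here. The authors deposited 1 table per library, with read counts, counts of converted positions and counts of conversion events per cluster, not normalized, and per the file headers the fraction of a cluster's reads that carry T-to-C, printed here as a percent.

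Gene, class and strand were taken from the deposited tables. Shares were computed per library with 95% Wilson intervals, and differences of shares with Newcombe intervals. Clusters were matched between libraries on the same strand with an overlap of at least 1 nt. Scripts (Python 3.11.15, pandas 2.3.3, numpy 2.4.6) were tested on simulated data. Named were the 12 members with the highest geometric mean number of clusters over the WT libraries, the 6 with the most 3′ UTR clusters, every member with a KO cluster, the 4 with the largest difference in read share, and the 6 strongest overlapping pairs, 1 per gene. Members named outside this rule (among them ZNF14, ZNF428, ZNF492, ZNF573, ZNF606, ZNF550, ZNF607, ZNF701 and ZNF507) were chosen after their values were seen. Genotypes were not tested, since there is 1 KO library. Alternatives covered read and conversion minimums, repeated sequences, wider names, leaving out leading members or a library, reads in place of clusters, the overlap, and equal numbers of clusters.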

Additional observations from a re-analysis of the deposited data

How the results depend on the processing

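Of 93 alternative values for 10 results, 79 stayed within the spread between the WT libraries, their interval or 1.5 times the count, 14 moved and 0 changed sign, which shares and counts cannot do. Several of the 79 could not have moved, so this count is no measure of robustness. A mean that leaves out 1 of 2 libraries always stays within their SD. Weighting by reads changed only the other genes, and filters cannot raise a KO count of 0. The order against other chromosome 19 genes turned in 4 of 11 alternatives for the 3′ UTR share and in 1 of 10 for the overlap of WT rep1. With at least 3 converted positions per cluster the intron share was 77.4%, the 3′ UTR share 16.1%, the overlap of WT rep2 with WT rep1 23.3%, the genes in both libraries 17, the T content 44.0% and the conversion 7.34%. With WT rep1 limited to as many clusters as WT rep2, an alternative chosen after seeing the data, the overlaps were 8.15% and 7.97%, the genes in both 33 and the conversion 7.40%. Asking for at least 3 clusters in each library left 15 genes. Conversion was 7.79% with at least 10 reads, 7.995% with ZFP, ZSCAN, ZKSCAN, ZIM and PEG3 names added, and 7.98% without ZNF121, also chosen after seeing the data. The cause of these shifts was not tested. Leaving out either WT library gave 24.1 to 31.0% for the share of chromosome 19 gene clusters, 80.7 to 89.4% for introns, 5.98 to 12.6% for 3′ UTRs, 1 to 2 clusters per gene, 40.4 to 43.0% T and 7.89 to 7.95% conversion. T content stayed above that of other chromosome 19 genes in 9 of 9 alternatives, and the overlap of WT rep2 stayed below theirs in 10 of 10. Removing repeated cluster sequences removed no cluster. Clusters per length are on another scale and stand in the report only. No paired analysis was possible because there is 1 KO library and no test between genotypes. With 842 KO clusters and 2 WT libraries that differ in cluster number, single members with few clusters cannot be compared.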

Other observations

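Other zinc finger names on chromosome 19 were outside the name rule. ZSCAN5A, a SCAN domain zinc finger gene, had 15 clusters with 331 reads in WT rep1 and 3 with 175 reads in WT rep2, all intronic. Apart from it, ZFP14 had 2 clusters, and ZFP28, ZSCAN22, ZNF529-AS1 and the readthrough ZNF816-ZNF321P had 1 each in WT rep1 only. ZFP30 had 1 cluster with 91 reads in WT rep2 only. None of these had a KO cluster.

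Among zinc finger genes on other chromosomes, ZNF609 had 43 clusters in WT rep1 and 29 in WT rep2, and ZNF638 had 44 and 14, both without a KO cluster. ZNF407 had 41 and 17 with 1 KO cluster of 458 reads, and ZNF292 had 41 and 15 with 1 KO cluster of 86 reads. The other KO clusters of such genes were in ZNF326, ZNF639, ZNF644 and ZNF800, and that in ZNF639 was in the 3′ UTR.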
